A study of Mus musculus with 5 samples.

Results

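Small nucleolar RNAs (snoRNAs) and small Cajal body RNAs (scaRNAs) were compared between wild type (WT) and C3G null mouse embryonic stem cells. A member is a gene that the GENCODE M21 annotation of mouse types as snoRNA or scaRNA and that had at least 1 TPM in at least 2 of the 5 samples. TPM are a share of the sample's total, scaled to the same sum in every sample, in which reads are set against transcript length. Members were thus chosen by their own level, and the difference between the groups was not used to choose them. Of 1529 annotated snoRNA and scaRNA symbols, 143 passed. By symbol these were 5 Snord, 33 Snora, 7 Scarna, 91 genes with only a Gm number and 7 others, namely AF357399, Mir1949, Rnu3a and Rnu3b1 to Rnu3b4. The remaining symbols were either listed at 0 in every sample, which held for 1341, or were above 0 without passing, which held for 45.

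The WT samples, 3 in number, were the E14Tg2a parent line. The C3G null samples, 2 in number, were of the same line after a CRISPR knock-in, in which an EF1α-puromycin cassette took the place of exons 2 to 4 of Rapgef1, the gene of the guanine nucleotide exchange factor C3G. Null lines were grown from single puromycin-resistant colonies, the clone behind each null sample was not named in the labels, and the study detected truncated transcripts from downstream exons. All 5 samples were untreated cultures in GMEM with serum and LIF on gelatin, and total RNA was treated with DNase before paired-end sequencing. Rapgef1 had 11.6, 10.3 and 9.64 TPM (WT 1 to 3) against 3.92 and 5.55 TPM (C3G null 1 and 2). All 8 ES cell markers checked, among them Pou5f1 and Nanog, passed the filter. Their summed level was 2223 to 2345 TPM in WT and 1771 and 2311 TPM in C3G null cells. None of 6 endoderm markers passed (summed level 1.91 to 3.23 TPM over the 5 samples). Of 6 fibroblast markers 2 passed, with a summed level of 3.95 to 5.77 TPM in WT and 1.0 and 1.41 TPM in C3G null cells, where 1 of the 6 was at 0 in both null samples. Of 5 trophoblast markers 2 passed, with 3.18 to 3.85 TPM in WT and 0.51 and 0.75 TPM in C3G null cells. The part of these in the values of the members was not tested. The study calls the samples of each group independent, and neither it nor the labels say whether they were separate cultures or clones. The spread between these samples may thus in part be technical. In p-values of TPM as deposited it enters only as 1 trend across genes. After the scaling described below, the spread of the single gene enters as well. In bulk RNA, fewer cells of a type and less RNA per cell cannot be told apart.

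SnoRNAs are stable RNAs of the nucleolus that pair with ribosomal RNA and guide its chemical modification. C/D box snoRNAs (Snord symbols) work with the methyltransferase fibrillarin and guide 2′-O-methylation, while H/ACA box snoRNAs (Snora symbols) work with dyskerin and guide pseudouridylation. A few, such as U3, U8, U22 and U17, are needed for the cleavages that free the ribosomal RNAs from their precursor. ScaRNAs carry the same boxes and guide the modification of spliceosomal RNAs in Cajal bodies. In mammals most of these RNAs are cut from introns of host genes, many of which encode ribosomal proteins, translation factors or non-coding Snhg transcripts.

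The RNAs that carry the results are printed as the transcripts of GENCODE M21 on GRCm38, 5′ to 3′. Capitals mark the ACA box of H/ACA RNAs, searched on the RNA strand only as ACA followed by 3 bases, with a tolerance of 2, before the 3′ end. The first set holds the members with the highest mean TPM. These were Gm26447 (chr16:23111301-23111429, + strand), Gm22988 (chr11:69669635-69669778, - strand) and the C/D snoRNA Snord22 (chr19:8725866-8725991, + strand).
Gm26447: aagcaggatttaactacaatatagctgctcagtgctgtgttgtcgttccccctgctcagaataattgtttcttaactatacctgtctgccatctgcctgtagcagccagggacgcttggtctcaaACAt
Gm22988: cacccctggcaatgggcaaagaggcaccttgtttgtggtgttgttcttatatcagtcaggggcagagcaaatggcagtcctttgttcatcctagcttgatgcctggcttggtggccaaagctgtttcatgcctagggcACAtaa
Snord22: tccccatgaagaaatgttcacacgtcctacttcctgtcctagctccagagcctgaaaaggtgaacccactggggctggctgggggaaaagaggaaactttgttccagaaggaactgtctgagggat

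The second set shares the host gene Eif4a2 with Gm26447 and is shown because these members differed widely among themselves. It comprised Gm24616 (chr16:23111617-23111755, + strand), Gm24201 (chr16:23110383-23110507, + strand) and Snora81 (chr16:23110756-23110933, + strand), in which no ACA stood in the searched window.
Gm24616: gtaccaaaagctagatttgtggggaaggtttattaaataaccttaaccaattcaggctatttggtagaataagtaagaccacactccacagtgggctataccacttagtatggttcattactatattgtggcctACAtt
Gm24201: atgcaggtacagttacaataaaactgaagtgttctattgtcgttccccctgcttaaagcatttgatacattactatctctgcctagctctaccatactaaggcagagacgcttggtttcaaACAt
Snora81: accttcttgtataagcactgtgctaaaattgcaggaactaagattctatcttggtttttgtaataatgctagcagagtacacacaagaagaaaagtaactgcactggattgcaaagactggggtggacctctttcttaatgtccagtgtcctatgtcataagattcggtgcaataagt

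The third set is the U17 pair of the host Snhg3, Snora73a (chr4:132352775-132352979, - strand) and Snora73b (chr4:132352322-132352526, - strand). They were identical at 198 of 205 aligned bases (96.6%), with a longest shared run of 56 bases, so reads could be divided between them.
Snora73a: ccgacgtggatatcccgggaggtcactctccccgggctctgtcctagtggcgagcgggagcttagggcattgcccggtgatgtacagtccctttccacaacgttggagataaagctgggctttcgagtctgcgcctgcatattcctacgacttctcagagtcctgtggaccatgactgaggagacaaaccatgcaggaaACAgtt
Snora73b: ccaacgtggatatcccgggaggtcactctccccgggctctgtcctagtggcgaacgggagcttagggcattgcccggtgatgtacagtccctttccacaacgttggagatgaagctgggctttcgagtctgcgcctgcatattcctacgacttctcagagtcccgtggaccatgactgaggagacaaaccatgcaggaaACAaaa

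The last set holds the scaRNA Gm24289 (chr9:64295931-64296065, + strand), the highest in C3G null cells of the members at 0 in every WT sample, and Snora31 (chr14:75847905-75848034, + strand), the member that was lower by both scalings.
Gm24289: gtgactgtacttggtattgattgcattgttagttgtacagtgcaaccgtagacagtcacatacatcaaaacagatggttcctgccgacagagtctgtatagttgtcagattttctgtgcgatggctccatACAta
Snora31: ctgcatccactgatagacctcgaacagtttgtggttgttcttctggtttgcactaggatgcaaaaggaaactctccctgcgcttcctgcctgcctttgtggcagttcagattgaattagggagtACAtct

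Which of these RNAs had a value followed their length. No matched transcript of 121 bases or fewer, of any gene type and 4584 in number, was above 0 in any sample. This removed 613 of the 1529 genes, among them 92 of 97 Snord and 1 of 40 Snora. Another 728 genes of 122 bases or more were also at 0 in every sample. The shortest transcript with a value had 122 bases in WT 1 and C3G null 2, 123 bases in WT 2 and C3G null 1 and 124 bases in WT 3. An ACA near the 3′ end was found in 45.5% of the annotated genes and in 73.4% of the members. A C box (TGATGA within the first 21 bases) together with a D box (CTGA within the last 20 bases), both searched on the RNA strand only, was found in 20.5% of the annotated genes and 6.99% of the members. Members thus described mainly H/ACA RNAs, and C/D RNAs only where they were long. Of 143 members, 17 were typed as scaRNA.

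Low values of members fell on a grid. Transcripts of one length often had the same lowest value in a sample or a whole multiple of it, which is the grid that whole read pairs divided by one effective length would give. At 131 bases the step was 7.59, 7.86 and 6.95 TPM (WT 1 to 3) against 4.37 and 5.88 TPM (C3G null 1 and 2). At 178 bases it was 0.871, 0.863 and 0.754 TPM (WT 1 to 3) against 0.50 and 0.688 TPM (C3G null 1 and 2). The step was therefore smaller in both C3G null samples than in all WT samples, and it fell steeply with length. Among the 123 members of 124 to 200 bases, 159 of 219 values of up to 10 steps lay within 0.1 of a whole number (72.6%). That share was 87.0% for members in an intron or without a host and 38.5% for members that overlapped a host exon, where reads can be divided between the member and its host. Steps show how few reads lie behind a TPM. Of these members, 54 had a mean of up to 10 steps over the 5 samples, 40 a mean of 10 to 100 and 29 a mean over 100, and 5 had at most 1 step in every sample.

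**Figure D1:**
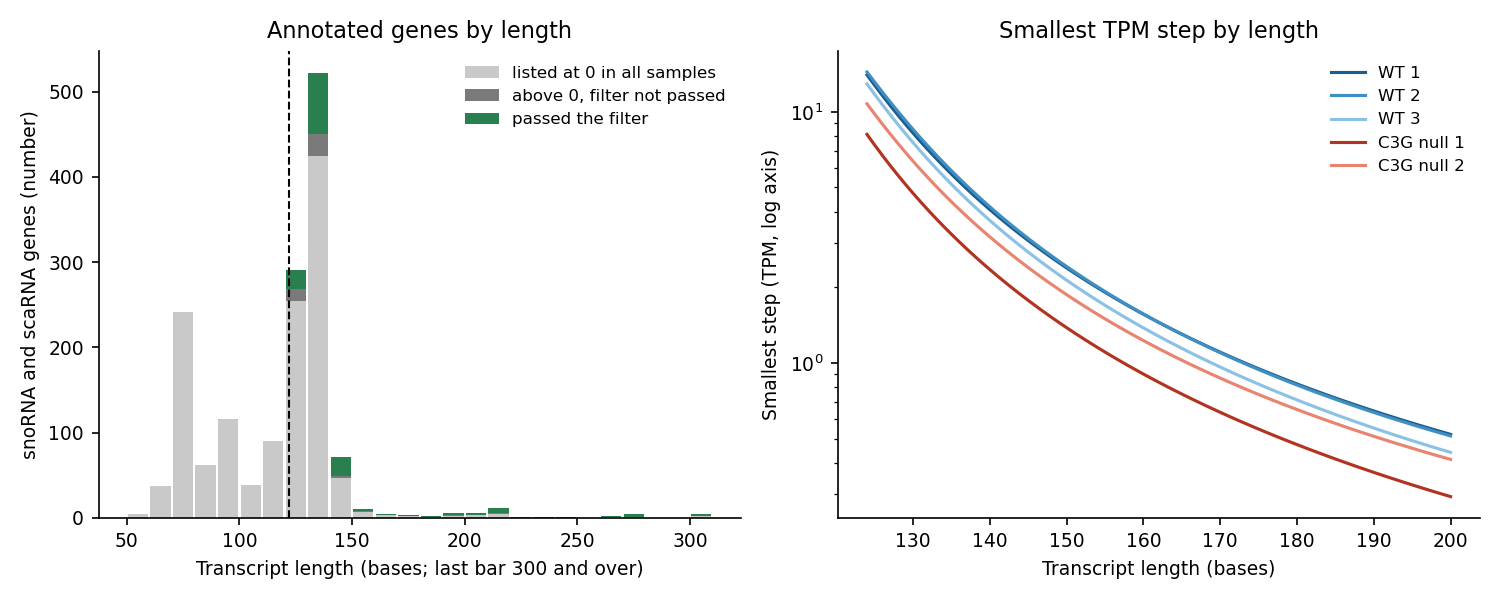
Left, the number of annotated snoRNA and scaRNA genes by transcript length in bins of 10 bases, split into genes listed at 0, genes above 0 that did not pass and the 143 members, with a dashed line at 122 bases. Right, the smallest TPM step by transcript length in each sample on a log axis; both C3G null curves lie below the 3 WT curves.

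The most abundant members were very high in TPM. Gm26447, an H/ACA RNA of 129 bases in Eif4a2, had 27907, 30689 and 24577 TPM (WT 1 to 3) against 21605 and 30866 TPM (C3G null 1 and 2). Gm22988, of 144 bases in Eif4a1, had 22578, 21062 and 14341 TPM (WT 1 to 3) against 17074 and 23149 TPM (C3G null 1 and 2). Snord22, the C/D snoRNA U22 of the host Snhg1, had 17274, 15487 and 9392 TPM (WT 1 to 3) against 9221 and 16578 TPM (C3G null 1 and 2). WT and C3G null samples overlapped for all of these. Per length, Gm26447 stood above Gm22988 in every sample. In steps the order was turned, with 3125, 3320 and 2999 steps against 4198 and 4475 steps for Gm26447 and 6966, 6367 and 4913 steps against 9119 and 9152 steps for Gm22988. Together these 3 members made up 44.6 to 53.5% of member TPM in WT and 39.2 and 50.5% in C3G null cells.

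As a share of all TPM, members did not separate the groups. Their share was 12.9%, 12.6% and 10.8% in WT 1 to 3 and 12.2% and 14% in C3G null 1 and 2. The difference of 1.01 percentage points did not pass (two-sided exact permutation test, p = 0.6, where the smallest p that 3 against 2 samples allow is 0.2). Set against protein-coding genes, members had 40.5, 40.1 and 37.6 TPM per 100 protein-coding TPM in WT and 65.8 and 53.7 in C3G null cells. Here both null samples lay above all WT samples (difference 20.3, exact permutation test, p = 0.2). Set against spliceosomal snRNAs, the log2 ratio of members was 0.832 ± 0.0403 (SD, n = 3) for WT against 0.51 ± 0.112 (SD, n = 2) for C3G null cells, and both null samples lay below all WT samples (exact permutation test, p = 0.2). The direction thus depended on the reference. Genes of the type misc_RNA, another large class, held 29.8 to 39.4% of TPM in WT and 44.4 and 30.2% in C3G null cells, and their part in these shares was not tested. By class, Snord genes held 1.39 to 2.24% of TPM in WT and 1.45 and 2.23% in C3G null cells, and Snora genes held 1.62 to 1.87% and 2.2 and 1.86%. Scarna genes held 0.19 to 0.192% in WT and 0.177 and 0.167% in C3G null cells.

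Gene by gene, more members were higher than lower in C3G null cells. As deposited, 66 of 143 members were higher and 10 lower at an adjusted p under 0.05 (limma on log2(TPM + 1), Benjamini-Hochberg over 12518 tested genes). Of all tested genes, 1.45% were higher and 56.8% lower. Their median log2 fold change was -0.55 and that of members 0.49. In 40 members both null samples lay above all WT samples and in 9 below, against 1.49% and 75.7% of all tested genes. Of the 66 members called higher, 32 had overlapping samples, since the fit of values as deposited used 1 trend of the spread across genes and not the spread of the single gene. Without C3G null 1 the count was 19, and without WT 2 it was 39. It was 31 without the 54 members of a mean of up to 10 steps and the 3 of 122 bases, too short for a step estimate, and 4 were then lower. The smaller step in C3G null cells moved with these counts, and its part in them was not tested. For fits that left out a sample, here and below, the share of all tested genes called was not counted. Wherever a count of 0 by limma is given here for members or for a list, the count at an unadjusted p under 0.05 was 0 too, except for the non-coding hosts after scaling, where 1 was lower.

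TPM share one total, so each sample was also divided by the median ratio of its genes to their mean over samples (median-of-ratios scaling). Over all tested genes the median change then moved from -0.55 to 0.01. With it 51 members were higher and 1 was lower, where 14.1% and 16.6% of all tested genes were. Members had a median of 1.16, and both null samples lay above all WT samples in 81 members and below in 1, against 29.5% and 29.3% of all tested genes. Without C3G null 1 the count of higher members was 25. It was 41 without the same members, and none was then lower by limma. By both scalings 33 members were higher, where 1.45% of all tested genes were higher as deposited, and Snora31 was lower. Of the 33, 32 had no overlap in either. Since this scaling raises the null samples against WT, a lack of overlap above WT as deposited had to carry over. Some members passed the filter through 1 group. In 8 both null samples but fewer than 2 WT samples had 1 TPM or more, and in 8 at least 2 WT samples but fewer than 2 null samples did, so the filter itself favoured a difference there. Among the 103 members with 1 TPM or more in all 5 samples, 37 were higher and 6 lower as deposited, and 41 were higher and 1 was lower after scaling.

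**Figure D2:**
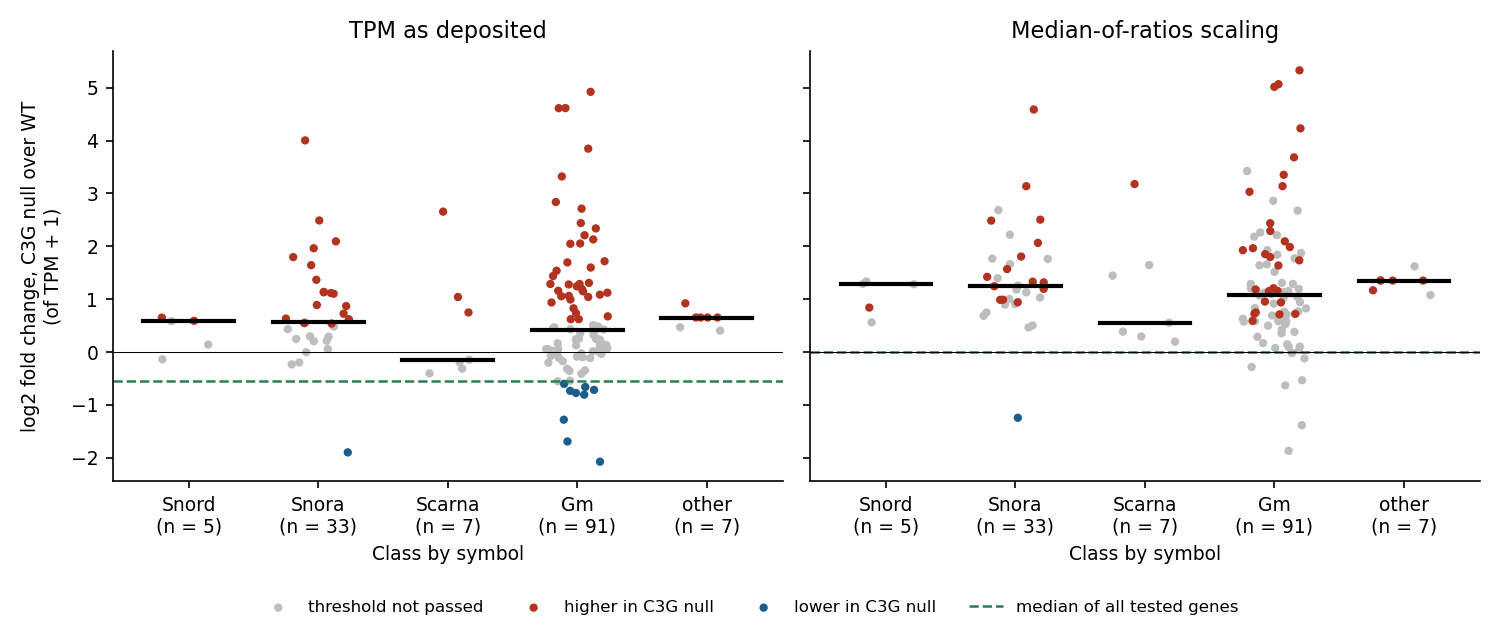
Each point is a member, with its log2 fold change of TPM + 1 in C3G null over WT cells, by class, with TPM as deposited on the left and median-of-ratios scaled TPM on the right. Black bars are class medians and the green dashed line is the median of all tested genes, -0.55 on the left and 0.01 on the right.

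The spread between samples was wide for members. The median SD of log2(TPM + 1) over WT samples was 0.5 for members and 0.09 for all tested genes, and the median difference between the null samples was 0.88 and 0.11. It followed the number of steps, with a median WT SD of 1.42 for members with a mean of up to 10 steps, 0.5 for 10 to 100 and 0.28 over 100. Fold changes differed along the same axis. As deposited their medians were 0.66, 0.48 and 0.24, and after median-of-ratios scaling 1.29, 1.17 and 0.94. Among the 29 members with a mean over 100 steps, 6 were higher and none was lower as deposited by limma, and 14 were higher and none was lower after scaling. After scaling both null samples lay above all WT samples in 23 of the 54 members with a mean of up to 10 steps. The same held in 23 of 40 with 10 to 100 steps and 23 of 29 over 100. This share thus rose with steps, and in each group it was above the 29.5% of all tested genes. By limma 1.45% of all tested genes were higher as deposited and 14.1% after scaling.

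Only 5 C/D snoRNAs with a Snord symbol were measured. As deposited 2 were higher (40%) and none lower by limma, where 1.45% of all tested genes were higher and 56.8% lower. After median-of-ratios scaling 1 was higher (20%), where 14.1% of all tested genes were. Snord15b, one of the U15 RNAs that guide methylation of 28S ribosomal RNA, had 4055, 3352 and 3307 TPM (WT 1 to 3) against 3274 and 4702 TPM (C3G null 1 and 2). Its samples overlapped, and it was higher by a log2 value of 0.84 once scaled (SE 0.187, adjusted p = 0.0195), a call kept only when WT 1 was the sample left out. Snord15a, in an intron of the same host, Rps3, had 340.4, 203 and 335 TPM (WT 1 to 3) against 634 and 289 TPM (C3G null 1 and 2). C3G null 1 was highest there and C3G null 2 fell within the WT range (log2 fold change 0.58 as deposited, adjusted p = 0.0562, and 1.28 after scaling, adjusted p = 0.103). Snord22, with the values above, had log2 fold changes of -0.14 as deposited and 0.56 after scaling, neither past the threshold (adjusted p = 0.565 and 0.258). Snord17 had 714, 446 and 806 TPM (WT 1 to 3) against 1312 and 700.1 TPM (C3G null 1 and 2). It was called higher as deposited (0.59, adjusted p = 0.0472), with C3G null 2 inside the WT range and a value of 0.14 without C3G null 1, and not after scaling (1.29, adjusted p = 0.0862).

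RNAs tied to processing of the ribosomal RNA precursor were taken from a list written down from general knowledge, which includes Snord17. Whether each RNA on this list acts in cleavage was not checked. Of its 20 symbols, 16 were in the table and 11 passed, and 5 of the others, Snord13 and 4 Snord14 genes, were listed at 0 in every sample. As deposited 8 of the 11 were higher (72.7%, where 1.45% of all tested genes were) and none lower by limma. After scaling 5 were higher (45.5%, where 14.1% of all tested genes were) and none lower. The medians of the list were 0.65 and 1.35. Of these calls 4 were 1 measurement, since Rnu3b1 to Rnu3b4 carried the same values. These U3 genes, which act in the first cleavages, each had 1140.1, 938 and 1246 TPM (WT 1 to 3) against 2229 and 1346 TPM (C3G null 1 and 2). Both null samples lay above all WT samples, C3G null 2 only just above WT 3 (log2 fold change 0.65, adjusted p = 0.0261, as deposited and 1.35 ± 0.388 (SE), adjusted p = 0.0438, after scaling). By either scaling the call was kept only when C3G null 2 was left out, and without C3G null 1 the values were 0.29 and 0.71. Rnu3a, identical to Rnu3b1 at 187 of 211 aligned bases, had 652, 502 and 1272 TPM (WT 1 to 3) against 2725 and 735 TPM (C3G null 1 and 2). C3G null 1 was far above the rest and C3G null 2 was below WT 3. It was called higher as deposited (0.92, adjusted p = 0.00242), but its log2 fold change was -0.022 without C3G null 1, and after scaling it did not pass (1.62, adjusted p = 0.16).

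U8, the C/D snoRNA Snord118 that is needed for 5.8S and 28S maturation, had 50.9, 40.7 and 15.4 TPM (WT 1 to 3) against 48.8 and 52.6 TPM (C3G null 1 and 2), which is 9, 7 and 3 steps against 15 and 12 steps. WT 3 was low and the other samples lay together (log2 fold change 0.65, adjusted p = 0.0330, as deposited and 1.34, adjusted p = 0.0544, after scaling). The call as deposited was kept only when WT 1 was left out, and the value was 0.15 without WT 3. Snora73a, the more abundant U17 RNA, had 6821, 7685 and 8557 TPM (WT 1 to 3) against 6628 and 6405 TPM (C3G null 1 and 2). Both null samples were below all WT samples, and the difference passed by neither scaling (-0.23, adjusted p = 0.352, and 0.47, adjusted p = 0.307), with its sign turned by the scaling. Its near copy Snora73b had 2966, 2708 and 2329 TPM (WT 1 to 3) against 2826 and 3736 TPM (C3G null 1 and 2), with overlapping samples as deposited, and was higher after scaling (0.99 ± 0.173 (SE), adjusted p = 0.00899). The log2 ratio of Snora73a to Snora73b was 1.53 ± 0.339 (SD, n = 3) for WT against 1.0 ± 0.32 (SD, n = 2) for C3G null cells and overlapped between groups (exact permutation test, p = 0.4). Snora62 was near the lower end, with 5.02, 2.54 and 0 TPM (WT 1 to 3) against 4.34 and 5.9 TPM (C3G null 1 and 2), or 2, 1 and 0 steps against 3 and 3 steps, and was called higher only as deposited (adjusted p = 2.46e-06), a call lost without WT 3 (0.39) or either null sample.

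Among 33 H/ACA snoRNAs with a Snora symbol, 18 were higher (54.5%) and 1 lower (3.03%) as deposited, where 1.45% and 56.8% of all tested genes were. After scaling 15 were higher (45.5%) and 1 lower (3.03%), where 14.1% and 16.6% of all tested genes were. The Snora medians were 0.57 and 1.26. The larger differences named here came from genes that were low in WT cells. Snora81, in Eif4a2, had 10.2, 0 and 15.6 TPM (WT 1 to 3) against 149.9 and 54.6 TPM (C3G null 1 and 2). In steps these values were 11.75, 0 and 20.73 against 299.82 and 79.37. Both null samples were above every WT sample (log2 fold change 4.0, adjusted p = 3.9e-50, as deposited and 4.59 ± 1.2 (SE), adjusted p = 0.0331, after scaling). Without C3G null 1 it passed by neither scaling, and the scaled call was also lost without WT 1 or C3G null 2. Snora28, in Eif5, had 9.47, 20.4 and 0.94 TPM (WT 1 to 3) against 54.7 and 31.5 TPM (C3G null 1 and 2), or 0.89, 1.86 and 0.1 steps against 8.93 and 3.85 steps. Snora2b had 4.94, 0 and 4.48 TPM (WT 1 to 3) against 11.4 and 11.5 TPM (C3G null 1 and 2), or 1, 0 and 1 steps against 4 and 3 steps. Both were higher without overlap by both scalings, 3.14 (adjusted p = 0.0487) and 2.5 (adjusted p = 0.0413) after median-of-ratios scaling, on fewer than 10 steps in each sample. Neither passed by either scaling when a null sample was left out.

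The more abundant Snora genes had smaller differences. Snora74a had 1970.0, 1545 and 2271 TPM (WT 1 to 3) against 4596 and 2639.8 TPM (C3G null 1 and 2), with no overlap (log2 fold change 0.87, adjusted p = 0.00250, and 1.57 ± 0.429 (SE), adjusted p = 0.0379). Without C3G null 1 these values were 0.47 and 0.9 and did not pass, nor did they without WT 2. Snora43 had 709, 553 and 567 TPM (WT 1 to 3) against 934 and 839 TPM (C3G null 1 and 2), also with no overlap, and passed only after scaling (0.55, adjusted p = 0.0655, and 1.25, adjusted p = 0.00971). Snora78 had 651, 606 and 1948 TPM (WT 1 to 3) against 1983 and 322 TPM (C3G null 1 and 2). WT 3 and C3G null 1 were high together there and the other 3 samples were low, and neither scaling gave a call (adjusted p = 0.498 and 0.736).

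Of the 7 Scarna genes 3 were higher as deposited (42.9%, where 1.45% of all tested genes were) and none was lower by limma. After scaling 1 was higher (14.3%), near the 14.1% of all tested genes, and none was lower by limma. The Scarna medians were -0.14 and 0.55. Scarna10 had 646, 724 and 724 TPM (WT 1 to 3) against 598 and 527 TPM (C3G null 1 and 2), and Scarna13 had 500.4, 556 and 599 TPM (WT 1 to 3) against 411 and 422 TPM (C3G null 1 and 2). In both genes the null samples lay below all WT samples as deposited, without passing (log2 fold change -0.31, adjusted p = 0.286, and -0.4, adjusted p = 0.174). After scaling their values were 0.39 (adjusted p = 0.28) and 0.3 (adjusted p = 0.342), so the direction turned with the scaling. Scarna2, a guide for U2 snRNA, had 587, 493 and 331 TPM (WT 1 to 3) against 372 and 462 TPM (C3G null 1 and 2) and overlapped between groups. Scarna8 was the exception, with 0, 7.85 and 6.95 TPM (WT 1 to 3) against 13.1 and 46.9 TPM (C3G null 1 and 2), or 0, 1 and 1 steps against 3 and 8 steps. It was higher without overlap by both scalings (3.18, adjusted p = 0.0464, after scaling) and passed by neither when a null sample was left out. Taken by gene type, 7 of the 17 scaRNA genes were higher (41.2%) and 3 lower (17.6%, where 56.8% of all tested genes were) as deposited. After scaling 6 were higher (35.3%) and none lower by limma.

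The 91 Gm genes were the largest class. In 17 of them fewer than 2 WT samples had 1 TPM or more, so these passed the filter only with a null sample. As deposited 38 were higher (41.8%) and 9 lower (9.89%), where 1.45% and 56.8% of all tested genes were. After scaling 29 were higher (31.9%, against 14.1% of all tested genes) and none lower by limma. The Gm medians were 0.42 and 1.07. The scaRNA Gm24289, in an intron of Tipin, stood at 0 throughout WT, and had 32.6 TPM in C3G null 1 and 26.3 TPM in C3G null 2, which is 10 and 6 steps. Gm26387, in an intron of Rpl5, was likewise at 0 throughout WT, and had 20.2 and 27.2 TPM in C3G null 1 and 2, or 5 steps in each. Gm24500 and Gm26175 were also at 0 throughout WT, and had 1 and 2 steps and 1 and 3 steps in the null samples. These 4 were the members with no value in any WT sample, and no fold is given for them. At the lengths of these genes, 1 step was 5.15 to 14.4 TPM in WT.

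Eif4a2, the gene of a translation initiation helicase, hosted 4 members that differed among themselves. Eif4a2 itself had 231, 208 and 190.3 TPM (WT 1 to 3) against 136 and 209.7 TPM (C3G null 1 and 2) (log2 fold change 0.39 ± 0.0825 (SE), adjusted p = 0.0164, after scaling). Gm26447, with the values above, had a log2 fold change after scaling of 0.6 ± 0.375 (SE, adjusted p = 0.267). Gm24616, on its 3′ side in the host, had 148, 147 and 209 TPM (WT 1 to 3) against 1189 and 684 TPM (C3G null 1 and 2). Every null sample was above every WT sample. Its log2 fold change was 2.44 as deposited (adjusted p = 1.24e-16) and 3.14 ± 0.422 (SE) after scaling (adjusted p = 0.00365). Gm24201 was at 0 in WT 1 and WT 2, at 9.1 TPM in WT 3 and at 50.3 and 53.4 TPM in the null samples. Only 1 WT sample had 1 TPM or more, so it passed the filter through the null samples, and its difference is given as values alone. It shares a run of 17 bases with Gm26447. Within the same library, where scaling cancels, the log2 ratio of Gm24616 to Gm26447 was -7.38 ± 0.441 (SD, n = 3) for WT against -4.84 ± 0.929 (SD, n = 2) for C3G null cells, with no overlap (exact permutation test, p = 0.2, the smallest possible). All 4 members overlapped an exon of an Eif4a2 transcript, so reads could be divided between them and their host.

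**Figure D3:**
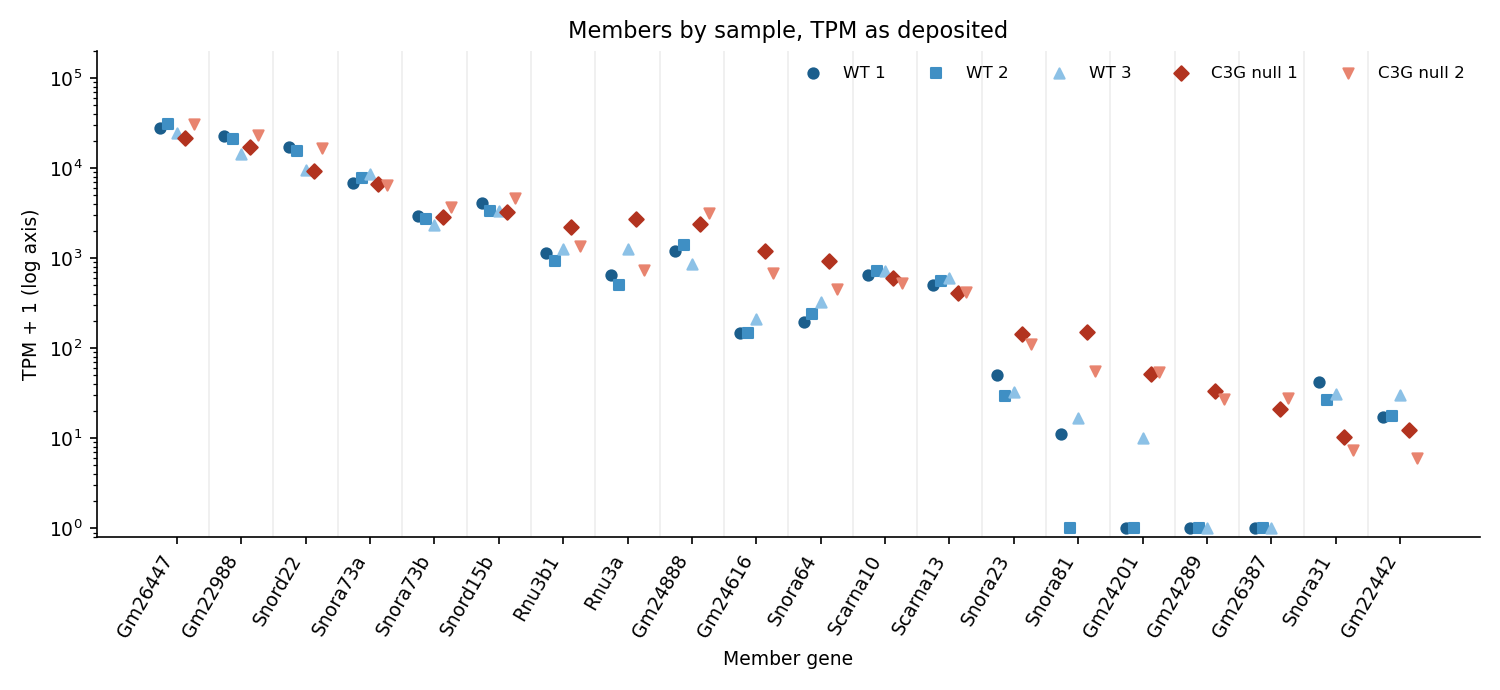
TPM + 1 of 20 members in each of the 5 samples on a log axis, as deposited, with WT in blue and C3G null in red. Gm26447, Gm22988 and Snord22 overlap between groups, while Gm24616, Snora81, Gm24201, Gm24289 and Gm26387 have both null samples above all WT samples and Snora31 has both below. Gm24201, Gm24289 and Gm26387 passed the filter through the null samples.

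Members of other hosts also differed. Gm24888, in an intron of the ribosomal protein gene Rpl27a, had 1208, 1379.7 and 852 TPM (WT 1 to 3) against 2383 and 3161 TPM (C3G null 1 and 2), which is 147, 162 and 113 steps against 503 and 497 steps. It was higher by both scalings without overlap (1.29, adjusted p = 8.34e-06, and 1.99 ± 0.204 (SE), adjusted p = 0.00144). Gm22270, in an intron of Rpl5, had 625, 821 and 752 TPM (WT 1 to 3) against 1308 and 1489.8 TPM (C3G null 1 and 2) (0.94, adjusted p = 0.00203, and 1.64, adjusted p = 0.00366). Gm23202, over an exon of Rpl21, had 44.6, 55.6 and 73.8 TPM (WT 1 to 3) against 324 and 262 TPM (C3G null 1 and 2) (3.03 after scaling, adjusted p = 0.00213). These 3 were chosen after their values were seen, as was Gm22767, a scaRNA in Ppp1r8, which had 2.61, 11.7 and 13.7 TPM (WT 1 to 3) against 99.7 and 31.9 TPM (C3G null 1 and 2) with no overlap and passed by neither scaling without C3G null 1. Gm22422, in an intron of Trmt10c and named for its level, had 3662, 3805 and 3066 TPM (WT 1 to 3) against 2526 and 4132 TPM (C3G null 1 and 2), with overlapping samples.

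Falls were few. Snora31, in an intron of Tpt1, had 41.1, 25.6 and 30.1 TPM (WT 1 to 3) against 9.47 and 6.35 TPM (C3G null 1 and 2), with no overlap. Its log2 fold change was -1.9 (adjusted p = 3.16e-11) as deposited and -1.24 ± 0.309 (SE, adjusted p = 0.0280) after scaling. The scaled call was lost without WT 1, without WT 3 and without C3G null 2, where the value was -0.73, while the call as deposited was kept in all 5 such fits. In steps these values were 5, 3 and 4 steps against 2 and 1 steps. The host Tpt1 was lower as well, with 1431, 1443 and 1222 TPM (WT 1 to 3) against 388 and 554 TPM (C3G null 1 and 2) (-0.85 ± 0.123 (SE), adjusted p = 0.00463, after scaling). Snora31 and Tpt1 lie together on chromosome 14, and the part of this location in their values was not tested. Gm22442, in Chd3, had 16.2, 16.5 and 29.2 TPM (WT 1 to 3) against 11.2 and 5.08 TPM (C3G null 1 and 2), or 5, 5 and 10 steps against 6 and 2 steps. Gm22009, a scaRNA of 343 bases in Kpna4, had 305, 250.0 and 242 TPM (WT 1 to 3) against 161 and 159.8 TPM (C3G null 1 and 2), and Gm23105, in Pawr, had 218, 294 and 249 TPM (WT 1 to 3) against 199 and 127 TPM (C3G null 1 and 2). All 3 were lower without overlap as deposited and did not pass after scaling. Their scaled values were -0.63, -0.02 and 0.04 (adjusted p = 0.383, 0.948 and 0.949). For Gm23105 the sign turned. As deposited, Gm22009 lost its call when any WT sample was left out, Gm23105 when any WT sample or C3G null 2 was, and Gm22442 without C3G null 2.

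Members stood above their hosts in fold change. Of 143 members, 124 lay within 97 host genes on the same strand, 76 inside an intron and 48 over an exon, and 19 had no host. As deposited the hosts had a median log2 fold change of -0.49 and the members in them 0.49, and after scaling the medians were 0.19 and 1.18. Of the 48 members that were higher after scaling in a tested host, the host was higher in 12 cases, lower in 1 and past neither threshold in 35. Of the 97 hosts, 19.6% were higher and 9.28% lower after scaling, against 14.1% and 16.6% of all tested genes. Ribosomal protein genes hosted 22 members, of which 12 were higher (54.5%) and none lower by limma after scaling (median 1.48). Of these 17 hosts 3 were higher (17.6%, near the share of all tested genes, median 0.37). Genes with an Eif or Eef symbol, mostly translation factors but also the kinase gene Eif2ak3, hosted 11 members with a median of 1.77. These 6 hosts had a median of 0.1. Non-coding Snhg-type hosts held 15 members, of which 4 were higher after scaling (26.7%, median 0.99), and 6 of these 11 hosts were (54.5%, median 0.42). In 118 of the 124 pairs the member's fold change after scaling was above that of its host. Snora78 in Snhg9 was one of the other 6, and this host had 0.76, 0.75 and 2.63 TPM (WT 1 to 3) against 4.8 and 5.43 TPM (C3G null 1 and 2). The 124 pairs include Gm24201, Gm24289 and Gm26387, which passed the filter through the null samples, so the filter favoured a rise there. They also count Rnu3b1 to Rnu3b4, 1 measurement in Tex14, as 4 pairs. Over all members the median after scaling was 1.16, against 0.01 for all tested genes.

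**Figure D4:**
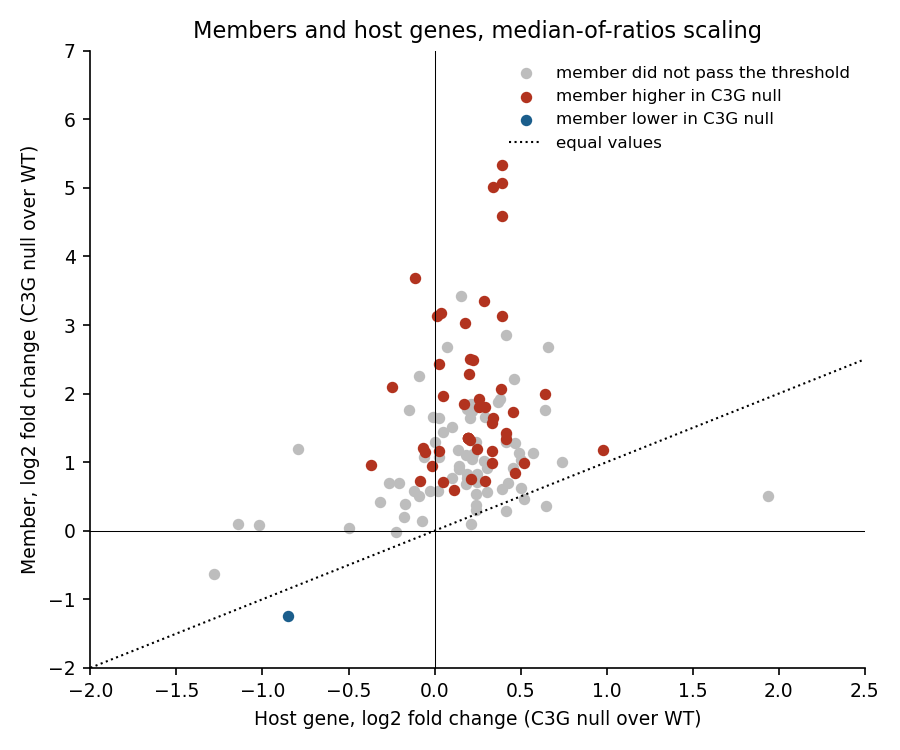
Log2 fold change after median-of-ratios scaling of 124 members (vertical axis) against that of their host gene (horizontal axis), colored by the member's call, with a dotted line of equal values. Of the 124 members, 118 lie above the line, and Snora31 is the member called lower. Gm24201, Gm24289 and Gm26387 passed the filter through the null samples, and Rnu3b1 to Rnu3b4 are 1 measurement.

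A scaling within the class asks how members moved against each other. Each sample was divided by the median ratio of the members alone, which sets their typical change to 0. With it 45 members were higher and 21 lower by limma, and both null samples lay above all WT samples in 22 members and below in 14. Of all tested genes, 0.735% were higher and 85.2% lower with this scaling, and both null samples lay above all WT samples in 0.639% and below in 90.6%. The 22 were also without overlap by either of the other scalings. This had to follow, since scaling within the class lowers the null samples against WT and median-of-ratios scaling raises them. Among the 22 were Gm24616, Snora81, Gm24888, Gm22270, Gm23202 and Snora61. Gm24201 was counted too, but it passed the filter through the null samples, which favoured a lack of overlap. The 22 were not split by how they passed the filter. The 14 on the lower side included the abundant Snora73a and Gm23262, the long Scarna10, Scarna13, Gm22009 and Gm25395, and low genes such as Snora31 and Gm22442. Gm23202, Snora61, Gm23262 and Gm25395 were named after their values were seen.

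Among the genes of proteins in these particles none was higher as deposited by limma, where 1.45% of all tested genes were higher and 56.8% lower. Of the C/D proteins, fibrillarin (Fbl) had 97.1, 92.2 and 86.4 TPM (WT 1 to 3) against 50.1 and 80.5 TPM (C3G null 1 and 2) with both null samples below all WT samples, without passing (-0.52, adjusted p = 0.0870, as deposited and 0.17, adjusted p = 0.169, after scaling). Nop56 and Nop58, the scaffold proteins, were lower as deposited (-0.65, adjusted p = 0.0377, and -0.73, adjusted p = 0.0206) and near 0 after scaling (0.05 and -0.04). Snu13 was higher after scaling (0.35, adjusted p = 0.0353). Of the H/ACA proteins, the pseudouridine synthase dyskerin (Dkc1) was lower as deposited (-0.69, adjusted p = 0.0269) and at -0.0037 after scaling. Its partners Nhp2 and Nop10 were higher after scaling (0.47, adjusted p = 0.0248, and 0.46, adjusted p = 0.0173). The calls of Nop56, Nop58 and Dkc1 as deposited were kept in 1 of 5 fits that left out a sample, and those after scaling in 0 (Snu13), 2 (Nhp2) and 3 (Nop10). Counted together, of 4 C/D proteins 1 was higher and none lower by limma after scaling, and of 4 H/ACA proteins 2 were higher and none lower. With this scaling 14.1% of all tested genes were higher and 16.6% lower.

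Of 31 assembly, processing and Cajal body factors, 20 were lower as deposited (64.5%, where 56.8% of all tested genes were). None was higher by limma, where 1.45% of all tested genes were. After scaling 2 were higher (6.45%) and 3 lower (9.68%), against 14.1% and 16.6% of all tested genes. The medians were -0.6 as deposited and 0.04 after scaling. Where these genes lie in the genome, and its part in their values, was not tested. Nufip1, which bridges Snu13 and the assembly machinery, had 11.2, 10.2 and 9.45 TPM (WT 1 to 3) against 2.21 and 3.52 TPM (C3G null 1 and 2), lower by both scalings (-1.0 ± 0.0625 (SE), adjusted p = 0.000368, after median-of-ratios scaling). Nop9, a ribosome biogenesis factor, had 13.5, 12.8 and 13.3 TPM (WT 1 to 3) against 4.15 and 5.57 TPM (C3G null 1 and 2), also lower by both (-0.68, adjusted p = 0.00356). The third was Tcof1, the nucleolar protein treacle (-0.38, adjusted p = 0.0244), named because it completes the count and lost without WT 1, WT 2 or C3G null 1. Pih1d1 and Ncbp1 were the 2 that were higher after scaling (0.58, adjusted p = 0.0242, and 0.34, adjusted p = 0.0160), each kept in 2 of 5 fits that left out a sample. Of 20 tested non-coding snoRNA hosts in a list of 24, 1 was higher (5%) and 2 lower (10%) as deposited. After scaling 10 were higher (50%) and none lower by limma. The medians were -0.29 as deposited and 0.32 after scaling. Snhg9 was higher by both scalings (1.94 ± 0.344 (SE), adjusted p = 0.00947), though not after scaling without C3G null 1. Meg3 and Rian, non-coding RNAs of the imprinted Dlk1-Dio3 region, were lower as deposited (-0.95, adjusted p = 0.00253, and -0.94, adjusted p = 0.00339) and did not pass after scaling (adjusted p = 0.269 and 0.0549). Snhg14 had 12.7, 9.68 and 9.88 TPM (WT 1 to 3) against 10.7 and 10.3 TPM (C3G null 1 and 2), with a log2 fold change after scaling of 0.62 (adjusted p = 0.0382), a call kept in 1 of 5 such fits.

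Several values were shared or rested on few reads. Reads of 6 members could not be told apart from an identical gene, namely Rnu3b1 to Rnu3b4 and the pair Gm22579 and Gm24539, which carried the same value in every sample. The 3 members of 122 bases, Gm22786, Gm24233 and Gm22303, had values in WT 1 and C3G null 2 only, the samples whose shortest transcript with a value had 122 bases. Gm24233 had 69.3 TPM in WT 1 and 292 TPM in C3G null 2, and the other samples were at 0. At least 1 sample stood at 0 in 39 members. Just inside the filter were Gm22478, Gm25663 and Scarna3b, whose second highest sample had 2.01, 2.44 and 2.5 TPM. Just outside were Gm24346, Snora75 and Gm23927, with 0.59, 0.58 and 0.33 TPM.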

How the data were processed

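Total RNA of 3 WT and 2 C3G null samples was sequenced as read pairs. The authors deposited 1 table of TPM per transcript. The submitters' processing notes name bcl2fastq 2.20, FastQC 0.11.7, STAR 2.5.1b and RSEM 1.2.31 with mm10. TPM keep no depth, so total reads are unknown and no count model was used in place of the study's count test. Under RSEM a short transcript has a small effective length, so a single read pair can give a high TPM.

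Transcripts were matched to GENCODE M21 (141524 of 142647) and summed by symbol. The 12518 genes with at least 1 TPM in at least 2 samples entered limma 3.58.1 (R 4.3.3) as log2(TPM + 1). The moderated test used a trend and was two-sided, and p-values were Benjamini-Hochberg adjusted with a threshold of 0.05. The pseudocount understates fold changes of low genes. Fits were made on the deposited TPM and again on median-of-ratios scaled TPM. A run on simulated data gave every gene the same spread and left snoRNA and scaRNA genes out of its count of false calls. It therefore cannot speak to false calls among members. Members, gene lists and tests were chosen with earlier results of these data known. Named were the most abundant members by class (5 Snord, 5 Snora, 3 Scarna, 3 Gm), the pre-rRNA processing snoRNAs, the 3 largest non-overlapping rises and falls past the threshold by class with at least 10 TPM, members sharing a host of 3 or more with these, and the 2 largest changes of each pathway list. Others are said to be chosen after their values were seen. Steps were estimated per sample from transcripts of 124 to 200 bases, an analysis added after seeing the data. Alternatives are given with the closing observations. Python 3.11.15, pandas 2.3.3, scipy 1.17.1 and matplotlib 3.10.9 were used.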

Additional observations from a re-analysis of the deposited data

How the results depend on the processing

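Counts of members past the threshold moved with the processing, and the cause was not tested except where a setting tested fewer members. As deposited, 66 were higher. The count was 9 with no filter, 29 with quantile normalization, 27 with a length correction, 34 with the replicate block, 31 without members of a mean of up to 10 steps or of 122 bases and 19 to 50 when 1 sample was left out. The 10 lower became 1 with no filter, 1 with quantile normalization, 21 with scaling within the class, 2 with a length correction, 4 with the replicate block, 4 without members of a mean of up to 10 steps and 5 to 8 when 1 sample was left out. After median-of-ratios scaling 51 were higher, and 27 with no filter, 29 with quantile normalization, 29 with a length correction, 75 with the replicate block and 25 to 52 when 1 sample was left out. The 1 lower became 0 with no filter, 21 with scaling within the class, 2 with the replicate block, 0 without members of up to 130 bases, 0 without members of a mean of up to 10 steps and 0 to 1 when 1 sample was left out. That 1 was Snora31 in 2 of the 5 fits that left out a sample, Gm22840 without WT 3 and Gm25683 without C3G null 2, and in 1 fit no member was lower. The last settings by length and by steps were chosen after seeing the data. Fits without a null sample assume that the lone one varies like WT.

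Whether replicate numbers pair the samples could not be decided. Correlations of deviations were -0.18 and 0.18 for equal numbers. The largest was 0.33, between WT 3 and C3G null 1 (0.42 over members alone). With 2 null samples the deviations of 1 mirror those of the other, so these values cannot exclude a pairing. The share of members differed by 1.01 percentage points of TPM and by 20.3 per 100 protein-coding TPM. The first value was 0.131 to 1.88 when 1 sample was left out, lowest without C3G null 2 and highest without C3G null 1, and 0.374 without WT 3. Without C3G null 1 the log2 fold change of Rnu3a was -0.022, and it reached 1.87 when C3G null 2 was left out. Median-of-ratios scaling turned 16 of the named genes in sign. Past the threshold by either scaling were Gm23105 (0.037), Nop56 (0.0465), Snu13 (0.35), Nhp2 (0.47), Nop10 (0.46), Pih1d1 (0.58), Ncbp1 (0.34) and Snhg14 (0.62). Past it by neither were Snord22 (0.56), Snora73a (0.47), Snora78 (0.50), Scarna10 (0.39), Scarna13 (0.30), Scarna2 (0.55), Gm26447 (0.60) and Gm22422 (0.59). The length correction turned Pih1d1 (0.36), Ncbp1 (0.25), Snhg14 (0.63), Snu13 (0.18), Nhp2 (0.19), Nop10 (0.21) and Scarna2 (0.13).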
